A study of Mus musculus with 6 samples.

Results

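The 9 genes B2m, Tap1, Tap2, Tapbp, Psmb8, Psmb9, Psmb10, Erap1 and Nlrc5 make and load the peptides shown by major histocompatibility complex (MHC) class I molecules, or, for Nlrc5, drive transcription of that pathway. They were taken by gene symbol from 24411 genes measured by bulk RNA-seq in 6 libraries, and all 9 were present and had enough counts to be tested, among 12720 tested genes. The libraries came from 2 mouse endothelial cell lines, 3 from each. bEnd.3 is a BALB/c line from brain endothelium that was transformed with the middle T antigen of polyomavirus. UV2, also written UV♀2, is labelled as an F1 of BALB/c and C57BL/6, and its tissue of origin is not given in the labels. Both lines were grown to confluence on 10-cm dishes and then held for 3 days in medium without serum, with no other treatment named. Genes of chromosome Y were far lower in UV2 (median log2 fold change, UV2 minus bEnd.3, of -10.8 over 4 genes). Strain, line and this difference cannot be told apart here. Each line is a single line, and nothing in the labels says that its 3 libraries came from separate cultures. The p-values therefore measure the spread between these libraries, which may be technical.

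Class I molecules carry fragments of the cell's own proteins to the surface, where CD8 T cells read them. The proteasome cuts the fragments, and on interferon its catalytic subunits Psmb5, Psmb6 and Psmb7 are replaced in new particles by Psmb8, Psmb9 and Psmb10, which form the immunoproteasome. The Tap1 and Tap2 proteins pair into the pump that moves peptides into the endoplasmic reticulum. There Erap1 trims them, tapasin (Tapbp) holds the heavy chain at the pump, and beta-2-microglobulin (B2m) is the light chain of the finished molecule. Nlrc5 binds no DNA itself and is recruited to class I promoters by RFX, CREB/ATF and NF-Y proteins. Endothelial cells carry class I at rest and raise it on interferon.

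The stretch before B2m is shown because it holds matches to several motifs that are known from class I promoters. It is a RefSeq window on GRCm38.p6 (the assembly of mm10), 5′ to 3′, at chr2:122147437-122147685, plus strand, and ends where the first GENCODE exon begins. Capitals mark matches, on either strand, to CCAAT (the NF-Y motif), TGACG (the core of sites for CREB/ATF proteins), the interferon-stimulated response element (ISRE) core GAAANNGAAA and the NF-kB consensus. The gamma-activated sequence (GAS) TTCNNNGAA was searched too and has no match here. From the left the matches are the ISRE core, NF-kB, TGACG and CCAAT, with NF-kB and CCAAT read in reverse.
B2m: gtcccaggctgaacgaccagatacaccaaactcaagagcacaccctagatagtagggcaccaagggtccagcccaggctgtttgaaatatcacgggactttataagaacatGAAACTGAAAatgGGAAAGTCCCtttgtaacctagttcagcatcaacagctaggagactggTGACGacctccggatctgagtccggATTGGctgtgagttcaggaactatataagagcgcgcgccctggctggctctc

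RefSeq promoter windows were found for 7 of the 9 genes, not for Tap2 and Nlrc5. That of Erap1 lies inside the gene as RefSeq places it and is left out, so 6 windows remain. The RefSeq starts need not be the only ones: GENCODE exons cover all 250 bases of the windows of Tap1, Psmb9, Psmb8 and Tapbp and 52 bases of that of Psmb10. CCAAT and TGACG stood together in the 250 bases before B2m, Tap1 and Psmb9, and among 32851 windows of that length 6.12% held both. Tap1 and Psmb9 start 225 bases apart in RefSeq and read away from each other, so for them these are the same letters, read from either side. The ISRE core was matched before B2m alone of these 6, against 2.98% of all windows, and so was the NF-kB consensus, against 3.90%. B2m has its ISRE core 139 to 130 bases before the start and its TGACG 78 to 74 bases before it. Before Tap1 the TGACG lies 86 to 82 bases and the CCAAT 222 to 218 bases from the start. A single GAS match, 97 to 89 bases before the start, was the only match of Psmb8 (7.02% of all windows hold one; the motif reads the same on both strands). Tapbp held CCAAT in reverse at 2 places (33.8% of windows hold CCAAT, and 17.8% hold TGACG), and none of these letters was found in the window of Psmb10. No link between these matches and the levels was tested. A match is a description of the letters and shows no binding.

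UV2 had more transcript than bEnd.3 of 6 of the 9 genes and less of 2, and for Tap2 no difference was called. Calls rest on an adjusted p under 0.05 from the quasi-likelihood test of edgeR, adjusted by the Benjamini-Hochberg method over all tested genes. Between these lines most genes differ: 67.1% of all tested genes passed, 33.9% higher in UV2 and 33.3% lower, so a call alone sets a gene apart from few others. For 8 of the 9 genes no library of UV2 reached into the range of bEnd.3, which was also so for 73.2% of all tested genes. The median log2 fold change (UV2 minus bEnd.3) of the 9 was 0.72, against -0.01 for all tested genes. Only Nlrc5 and B2m were beyond 2-fold by a test against that fold, 2 of 9 where 10.6% of all tested genes were higher by that much. Levels below are in CPM, the counts of a gene set against the TMM-scaled library total, given by library in the order of replicates 1, 2 and 3 or as mean ± SD (n = 3 libraries). Errors of log2 fold changes are standard errors (SE).

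**Figure D1:**
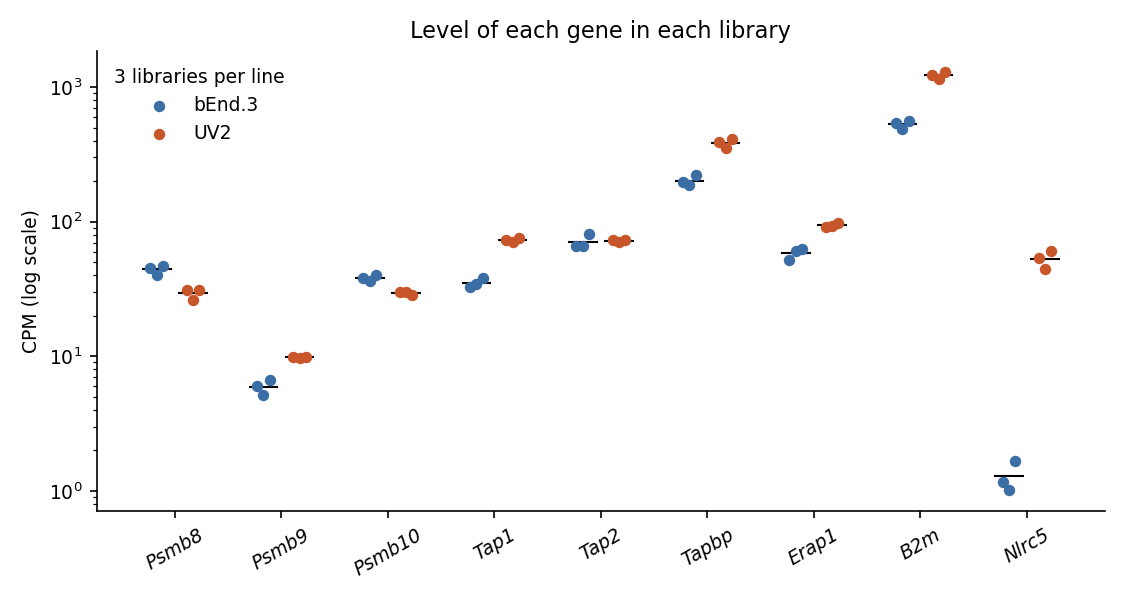
CPM (log axis) of the 9 genes in each of the 6 libraries, with bEnd.3 in blue and UV2 in orange, points for libraries and bars for means of 3 libraries. Nlrc5 has the widest gap, with means of 1.28 CPM (bEnd.3) and 52.8 CPM (UV2), Psmb8 and Psmb10 are lower in UV2, and the Tap2 points overlap.

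Nlrc5, the class I transactivator (chromosome 8, 94434335 to 94527272, 53 exons in its longest coding transcript), showed by far the largest difference of the 9. Its levels were 1.17, 1.02 and 1.66 CPM in bEnd.3 and 53.3, 44.5 and 60.5 CPM in UV2. The bEnd.3 values rest on 26, 25 and 49 counts, and the UV2 values on 1262, 919 and 1568. Every UV2 library was above every bEnd.3 library, and the spread within a line was small beside the gap (log2 fold change 5.34, SE 0.20, adjusted p = 5.14e-07 in edgeR). The non-coding gene 9330175E14Rik overlaps the first part of Nlrc5 on the opposite strand and held 1 count in the bEnd.3 libraries together and 41 in those of UV2 (ratio 44.6, with a 95% counting interval of 7.56 to 1802). In GENCODE, 7 of the 9 genes, all but B2m and Psmb10, have an exon under that of another gene on the opposite strand. No source says whether counting used the strand, so reads of such overlapping genes cannot be told apart. The 41 counts of 9330175E14Rik are few beside those of Nlrc5 in UV2.

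The genes that flank Nlrc5 on chromosome 8 were higher in UV2 too, by smaller amounts. Of the 3 nearest tested genes on either side, 6 of 6 passed as higher, where 33.9% of all tested genes did. The overlapping 9330175E14Rik, with its few counts, is among these 6 and is not a separate flanking gene. It passed the count filter only through UV2 and could only be called higher, so it adds nothing to that count. Apart from 9330175E14Rik, the log2 fold changes of these neighbours ran from 0.25 for Rspry1 (SE 0.09) to 1.43 for Cpne2 (SE 0.11). Herpud1, a gene of the endoplasmic reticulum stress response, stood at 34.0 ± 3.45 CPM in bEnd.3 and 64.1 ± 5.76 CPM in UV2. Over chromosome 8 as a whole the median log2 fold change was 0.14 (523 genes above an average log2 CPM of 3).

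**Figure D2:**
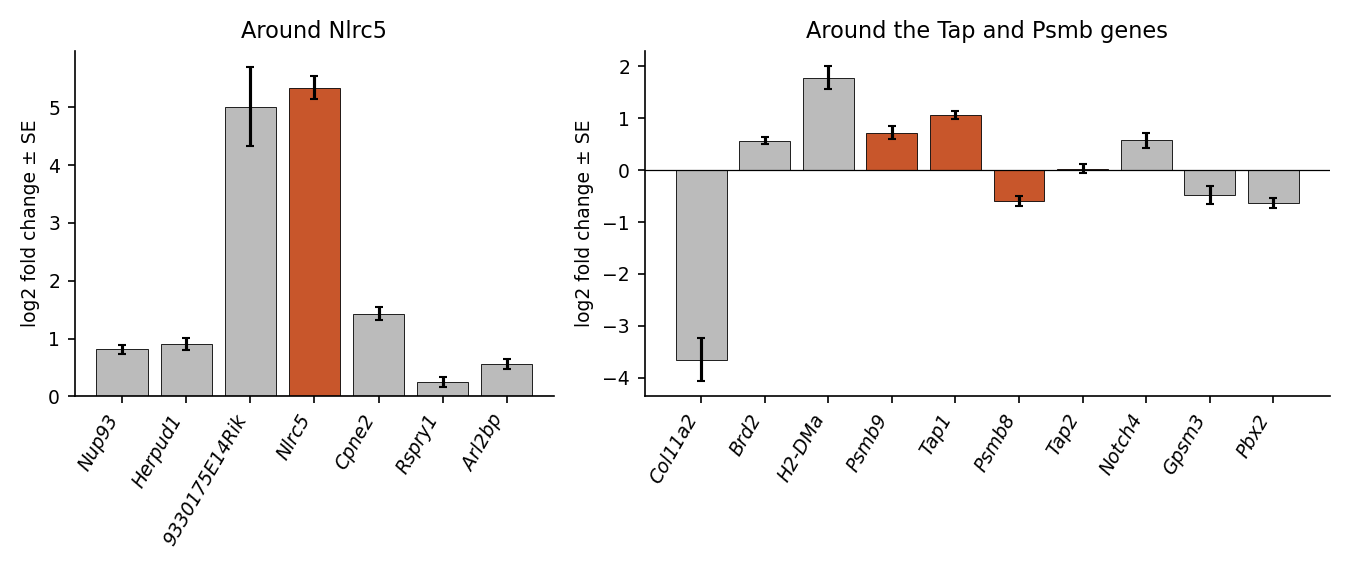
Log2 fold change (UV2 minus bEnd.3) ± SE of tested genes in chromosome order around Nlrc5 (left) and around Tap1, Tap2, Psmb8 and Psmb9 (right), with the 9 genes in orange and other genes in grey. All bars on the left point up, from 0.25 to 5.34, and the bars on the right point both ways, with Psmb9 and Tap1 up, Psmb8 down and Tap2 near 0.

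The immunoproteasome subunits did not move together: Psmb9 was higher in UV2, and Psmb8 and Psmb10 were lower. Psmb8, which replaces Psmb5 and carries the chymotrypsin-like activity (chromosome 17, 34198195 to 34201454), stood at 45.7, 40.5 and 47.1 CPM in bEnd.3 and 31.0, 26.1 and 31.0 CPM in UV2. The groups did not overlap (log2 fold change -0.60, SE 0.10, adjusted p = 0.00108 in edgeR). Psmb9, which replaces Psmb6 (chromosome 17, 34182030 to 34187330), was the least abundant of these 3 subunits, at 6.05, 5.13 and 6.69 CPM in bEnd.3 and 9.84, 9.79 and 9.91 CPM in UV2. All UV2 libraries were higher (log2 fold change 0.72, SE 0.13, adjusted p = 0.00172 in edgeR). Psmb10, which replaces Psmb7 (chromosome 8, 105935728 to 105938392), stood at 38.4, 36.1 and 40.2 CPM in bEnd.3 and 29.8, 30.1 and 28.4 CPM in UV2. It too was separated without overlap, by the smallest amount of the genes called (log2 fold change -0.38, SE 0.08, adjusted p = 0.00282 in edgeR).

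Set against the constitutive subunit that each replaces, Psmb8 was lower in every UV2 library, Psmb9 was higher, and Psmb10 overlapped between the lines. Psmb5 was higher in UV2 (115 ± 6.06 CPM, with 69.5 ± 7.55 CPM in bEnd.3; log2 fold change 0.73, SE 0.09). Psmb7 was lower in UV2 (97.9 ± 5.48 CPM, with 122 ± 13.4 CPM in bEnd.3; log2 fold change -0.32, SE 0.09). Psmb6 did not pass (86.3 ± 4.43 CPM, with 81.8 ± 6.98 CPM in bEnd.3; 95% interval of the log2 fold change -0.11 to 0.27). The log2 ratio of Psmb8 to Psmb5 counts within a library was -0.76, -0.78 and -0.40 in bEnd.3 and -1.92, -2.20 and -1.81 in UV2, a difference of -1.33. That of Psmb9 to Psmb6 was -3.85, -4.03 and -3.46 in bEnd.3 and -3.15, -3.20 and -3.03 in UV2, a difference of 0.65. Both pairs were separated without overlap. Psmb5 lies on chromosome 14, whose median log2 fold change was 0.71, and with the median of each gene's chromosome removed the difference of Psmb8 to Psmb5 was -0.70 and that of Psmb9 to Psmb6 was 0.48. For Psmb10 to Psmb7 the ratios overlapped, at -1.81, -1.77 and -1.42 in bEnd.3 and -1.69, -1.79 and -1.72 in UV2, a difference of -0.06 that turned to 0.058 without bEnd.3 replicate 3. With chromosome medians removed it was -0.47 (exact permutation p = 0.1). That setting shifts only the UV2 ratios, by a constant taken from the same comparison, so this p gives no support for a difference. The overlap of this pair is that of the ratios as counted. The ratios do not depend on library scaling, but their absolute size depends on transcript length, so only the differences between lines are compared. Over the 5 ratios examined, these 3 and those of Tap1 to Tap2 and Psmb9 to Psmb8, the exact two-sided permutation test gave p = 0.1 for 4 and p = 0.9 for Psmb10 to Psmb7 (0.125 and 0.9 with Benjamini-Hochberg adjustment), and 0.1 is the smallest p that 3 against 3 libraries allow.

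**Figure D3:**
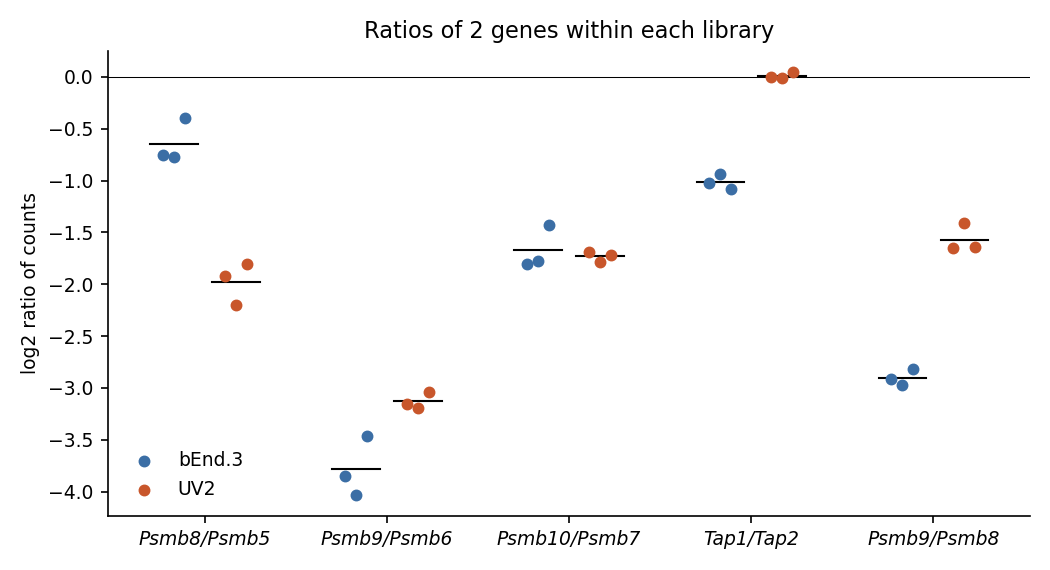
Log2 ratio of the counts of 2 genes within each library, for 5 pairs, with bEnd.3 in blue and UV2 in orange, points for libraries and bars for means of 3 libraries. Psmb8/Psmb5 is lower in UV2 by 1.33, Tap1/Tap2 and Psmb9/Psmb8 are higher by 1.02 and 1.33, and Psmb10/Psmb7 overlaps.

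The transporter subunits Tap1 and Tap2 differed in behaviour although their proteins work as a pair. Tap1 (chromosome 17, 34187556 to 34197225) stood at 32.7, 34.3 and 38.1 CPM in bEnd.3 and 72.9, 70.4 and 75.3 CPM in UV2. The UV2 mean was 2.08 times the bEnd.3 mean (log2 fold change 1.06, SE 0.08, adjusted p = 1.45e-05 in edgeR), and the test against a 2-fold difference was not passed (adjusted p = 0.387). Tap2 (chromosome 17, 34204479 to 34216321) stood at 66.5, 65.4 and 80.8 CPM in bEnd.3 and 73.1, 71.1 and 72.9 CPM in UV2, so the lines overlapped. Its log2 fold change was 0.03 (95% interval -0.18 to 0.24, adjusted p = 0.796 in edgeR), and its sign turned under 4 of 14 alternative settings. The log2 ratio of Tap1 to Tap2 counts was -1.02, -0.93 and -1.08 in bEnd.3 and -0.0033, -0.013 and 0.048 in UV2, a difference of 1.02 without overlap. The authors' estimates for these paralogs were not whole in 4 of 6 libraries while their sum was whole in 6 of 6 (within 0.015), so some reads were divided between them.

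Psmb9, Tap1, Psmb8 and Tap2 lie side by side in the MHC region of chromosome 17, and the direction changed along them. Psmb9 and Tap1, which start close together and read away from each other, were both higher in UV2. Psmb8, which in RefSeq starts 970 bases past the end of Tap1, was lower. The log2 ratio of Psmb9 to Psmb8 counts was -2.91, -2.97 and -2.81 in bEnd.3 and -1.65, -1.41 and -1.64 in UV2, a difference of 1.33 without overlap. Around these 4 genes the 3 nearest tested genes on either side gave 3 higher (Brd2, H2-DMa and Notch4) and 3 lower (Col11a2, Gpsm3 and Pbx2). Of all tested genes, 33.9% were higher and 33.3% lower, and the median over chromosome 17 was 0.08. The RefSeq genes Psmb9 and Tap1 do not overlap, but in GENCODE Psmb9 reaches to 34187764, past the Tap1 start at 34187553, on the opposite strand. The counts of Psmb9 were whole in all 6 libraries.

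Tapasin, the trimming enzyme and the light chain were all higher in UV2. Tapbp (chromosome 17, 33919478 to 33929290), which bridges the pump and the heavy chain, stood at 196, 189 and 221 CPM in bEnd.3 and 392, 355 and 412 CPM in UV2, without overlap (log2 fold change 0.93, SE 0.09, adjusted p = 5.78e-05 in edgeR). Its expected counts were not whole in 6 of 6 libraries, and no gene sharing those reads was found. Erap1, the aminopeptidase that trims peptides (chromosome 13, 74639573 to 74693205), stood at 52.0, 60.9 and 62.1 CPM in bEnd.3 and 91.3, 92.9 and 97.2 CPM in UV2. The groups did not overlap (log2 fold change 0.69, SE 0.08, adjusted p = 0.000186 in edgeR). Genes of chromosome 13 were higher in UV2 as a body, with a median log2 fold change of 0.52 over 307 genes. With the median of each chromosome removed, the log2 fold change of Erap1 was 0.16 and the call was lost (adjusted p = 0.121). B2m (chromosome 2, 122147687 to 122153082) stood at 540.1, 488 and 561 CPM in bEnd.3 and 1232, 1155 and 1301 CPM in UV2, without overlap (log2 fold change 1.21, SE 0.08, adjusted p = 1.08e-05 in edgeR). It passed the test against 2-fold (adjusted p = 0.0227), but not with total counts (0.0741), without bEnd.3 replicate 2 (0.0890) or without UV2 replicate 3 (0.0724). The median of chromosome 2 was -0.27, opposite in sign to B2m.

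**Figure D4:**
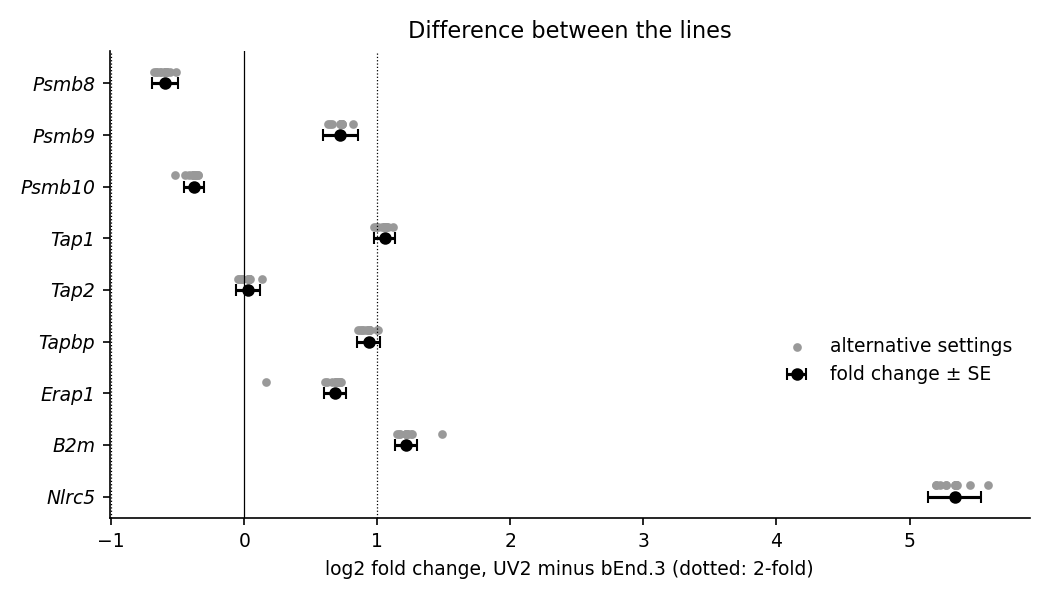
Log2 fold change (UV2 minus bEnd.3) of the 9 genes, with black points and SE bars for the reported fit and grey points for up to 14 alternative settings; dotted lines mark 2-fold. Nlrc5 stands at 5.34, the other 8 lie between -0.60 and 1.21, and the grey point of Erap1 at 0.16 is the one with chromosome medians removed.

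Per length, Tap1 moved from the sixth place among the 9 genes in bEnd.3 to the third in UV2, and Nlrc5 was last in both lines. Levels here are CPM per kilobase of the longest coding transcript in GENCODE's basic set, an approximation of the transcripts counted. In bEnd.3, B2m led at 616 ± 43.8, followed by Tapbp at 69.7 ± 5.88, Psmb10 at 29.2 ± 1.56, Psmb8 at 27.3 ± 2.15, Tap2 at 20.6 ± 2.50, Tap1 at 11.9 ± 0.933, Erap1 at 10.3 ± 0.975, Psmb9 at 4.41 ± 0.580 and Nlrc5 at 0.169 ± 0.0446. The ranges of Psmb10 and Psmb8 overlapped and those of the other neighbours in this order did not. In UV2, B2m stood at 1429 ± 85.1 and Tapbp at 133 ± 10.00, then Tap1 at 24.7 ± 0.831, Psmb10 at 22.5 ± 0.707, Tap2 at 21.0 ± 0.319, Psmb8 at 18.0 ± 1.72, Erap1 at 16.6 ± 0.541, Psmb9 at 7.28 ± 0.0434 and Nlrc5 at 6.96 ± 1.05. Here the ranges of Psmb8 and Erap1 overlapped, as did those of Psmb9 and Nlrc5. Constitutive subunits were above their replacements in both lines, with Psmb5, Psmb6 and Psmb7 at 77.4 ± 8.40, 102 ± 8.75 and 105 ± 11.5 in bEnd.3 and at 128 ± 6.74, 108 ± 5.56 and 84.4 ± 4.72 in UV2.

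Within a line the 9 genes followed their libraries. In bEnd.3, 9 of 9 were highest in replicate 3, where 38.0% of all tested genes were highest. In UV2, 7 of 9 were lowest in replicate 2, where 33.9% of all tested genes were lowest. The 14 constitutive subunits of the 20S proteasome core went the other way: 14 of 14 were lowest in bEnd.3 replicate 3 (33.8% of all tested genes) and 14 of 14 were highest in UV2 replicate 2 (32.6%). The genes of a list share these libraries, so the counts describe these libraries only.

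Few other proteasome genes were called, against 67.1% of all tested genes, with the subunits of the activator PA28 among them. Of the other 11 core subunits 3 were higher in UV2 and 0 lower, and 8 were not called, with Psma5 the highest called (log2 fold change 0.49, SE 0.10) and a list median of 0.11. Psme1 and Psme2, the PA28 subunits that interferon raises, were higher in UV2. Psme1 went from 80.6 ± 4.29 to 153 ± 4.36 CPM (log2 fold change 0.93, SE 0.07) and Psme2 from 70.1 ± 2.23 to 149 ± 5.19 CPM (1.09, SE 0.06). They were the only 2 of 8 activator and assembly genes called. Psme1 and Psme2 also lie on chromosome 14, whose median log2 fold change was 0.71 (318 genes above an average log2 CPM of 3). Their fold changes with that median removed are not given here, so the part of this shift in them was not tested.

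Chaperones that fold and load class I molecules were higher in UV2, 5 of 6 with 1 not passed (list median 0.67). Of all tested genes, 33.9% were higher and 33.3% lower. Calreticulin (Calr), which holds the heavy chain in the loading complex, went from 525 ± 98.3 to 1406 ± 38.5 CPM (log2 fold change 1.42, SE 0.13). Pdia3, the disulfide isomerase bound to tapasin, and Canx, which holds new heavy chains, were higher by log2 fold changes of 0.72 (SE 0.12) and 0.52 (SE 0.10). Hspa5, a general chaperone of the endoplasmic reticulum, was higher as well (1.06, SE 0.14). Tapbpl, a tapasin-related peptide editor, did not pass (15.4 ± 1.25 against 13.9 ± 1.28 CPM, 95% interval of the log2 fold change -0.41 to 0.11). Of 7 other peptidases found in the table (of 8 listed), 2 were higher and 3 lower, from Lnpep (0.68, SE 0.11) to Tpp2 (-0.40, SE 0.10).

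**Figure D5:**
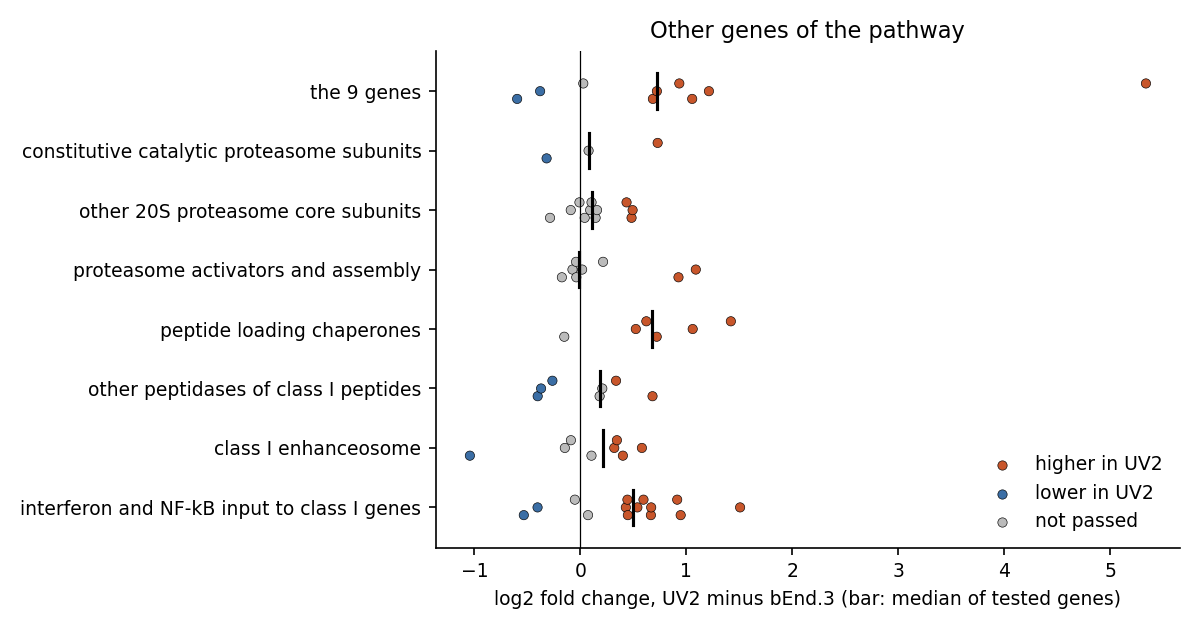
Log2 fold change (UV2 minus bEnd.3) of each tested gene in 8 lists (class I heavy chains and class II genes are not drawn), with orange for higher, blue for lower, grey for not passed and bars for list medians. Medians of the lists drawn run from -0.01 for proteasome activators and assembly to 0.72 for the 9 genes, and the blue point farthest left among them is Rfx5 at -1.04.

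Transcripts of the proteins that bring Nlrc5 to class I promoters did not move as a group. UV2 had 4 of the 8 genes higher and 1 lower, and 3 were not called (list median 0.21). The shares over all tested genes were 33.9% higher and 33.3% lower. Rfx5, the DNA-binding subunit of the RFX complex, stood at 59.6, 57.9 and 69.6 CPM in bEnd.3 and 30.9, 31.2 and 28.8 CPM in UV2 and was the lower one (log2 fold change -1.04, SE 0.09, adjusted p = 3.62e-05 in edgeR). Its partners Rfxap and Rfxank were higher. Rfxap went from 11.8 ± 0.781 to 15.6 ± 0.664 CPM (log2 fold change 0.40, SE 0.10) and Rfxank from 17.9 ± 0.265 to 26.8 ± 2.71 CPM (0.58, SE 0.10). Upstream of class I genes, 10 of 14 tested genes of interferon and NF-kB signalling were higher and 2 lower, and 2 were not called (list median 0.49). Irf1, a transcription factor that interferon induces, went from 44.4 ± 4.71 to 70.7 ± 5.38 CPM (log2 fold change 0.67, SE 0.10). Socs1, a feedback inhibitor, had the highest fold change of the list (1.51, SE 0.22) and the receptor subunit Ifngr2 the lowest (-0.53, SE 0.11). Ifng had 0 counts in all 6 libraries, and Ifnb1 had too few to be tested.

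Ciita, the relative of Nlrc5 that drives class II genes, was higher in UV2 at a low level. It held 0, 2 and 2 counts in bEnd.3 and 29, 35 and 79 in UV2, or 0.0498 ± 0.0436 and 1.99 ± 0.945 CPM. H2-DMa, a class II peptide editor, stood at 0.996 ± 0.138 and 3.39 ± 0.545 CPM. Ciita and H2-DMa were the only 2 of 8 class II pathway genes with enough counts to be tested. Both were called higher, as were 33.9% of all tested genes. Ciita passed the count filter only through UV2 and could only be called higher, so the 2 calls say little about the class II pathway. Of 13 class I heavy chain genes tested, 11 were higher in UV2, where 33.9% of all tested genes were. Among them, H2-Q1, H2-Q2, H2-Q6 and H2-Q10 had 0 to 4.22 counts per bEnd.3 library and passed the count filter only through UV2. These genes could only be called higher, so the 11 are not comparable with that share. H2-K1 (61.1, 33.6 and 43.9 CPM in bEnd.3, 1060, 971 and 1006 CPM in UV2) and H2-D1 were among the 11. H2-T24 was lower (log2 fold change -1.66, SE 0.14), and H2-T10 was not called. H2-Q1 had 0 counts in bEnd.3 and was at least 361-fold higher in UV2, against a floor of 3 counts over the bEnd.3 libraries, and heavy chains are near copies that differ between strains, so all these values are uncertain.

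Genes with the most similar pattern over the 6 libraries were found by the distance between centred log2 CPM profiles, among 11246 genes. For Nlrc5 they were Lgals3bp (distance 0.37), Nuak2 (0.41) and Gldnos (0.55), of which Lgals3bp rose from 1.78 ± 0.303 to 68.2 ± 3.21 CPM and Gldnos had 0 counts in bEnd.3 (at least 74.3-fold higher in UV2). The nearest to Tap1 were Klhl12, Cog3 and Ero1lb (0.091 to 0.11), to Psmb9 Def8, Hoxb6 and Arid5b (0.15 to 0.18), and to Psmb8 Dhrs7b, Pih1d1 and Parp3 (0.077 to 0.11). None of these 12 genes was another of the 9. Such a distance follows mostly the size of the fold change between the lines, and only the nearest genes were kept. The absence of other members therefore says little about the 9, and shared control was not tested.

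Total expected counts were 21306441 to 28748128 per library. Endothelial markers were abundant in both lines, and the 6 together summed to 9153 to 9640 CPM in bEnd.3 and 10001 to 11478 CPM in UV2, with Tie1 called higher, Erg lower and 4 not passed. The 8 leukocyte markers summed to 90.7 to 160 CPM in bEnd.3 and 346 to 455 CPM in UV2. Nearly all of this was Cd68 in bEnd.3 (116 ± 37.2 CPM), where Itgax stood at 0.717 ± 0.243 CPM. In UV2 it was Cd68 (285 ± 49.8 CPM) and Itgax (108 ± 13.9 CPM), both called higher, with a log2 fold change of 7.27 (SE 0.21) for Itgax. The pan-leukocyte gene Ptprc had 1 count in the 6 libraries together and Cd3e had 0. The 8 mural and fibroblast markers summed to 1.93 to 3.22 CPM in bEnd.3 and 10.7 to 21.8 CPM in UV2, with Pdgfrb and Pdgfra called and Des at 0. The 6 epithelial markers stayed at or below 0.964 CPM with Epcam at 0. In bulk RNA, fewer cells of a type and less RNA per cell cannot be told apart, and the part of these markers in the results was not tested.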

How the data were processed

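Per the labels' protocols, cells were detached with trypsin, RNA was isolated with a column kit and libraries were made with a stranded mRNA kit. Trim Galore, STAR, RSEM and mm10 are named in the submitters' processing notes, without versions, annotation or strand setting. Expected counts per gene symbol were deposited by the authors, 1 column per library. They were rounded, filtered with filterByExpr, scaled by TMM and fitted with edgeR 4.0.16 (quasi-likelihood, line as the only term; R 4.3.3), with adjustment over all 12720 tested genes. The test against 2-fold was glmTreat. SE is the log2 fold change over the root of its F. Ratios used counts plus 0.5. Alternatives were other scalings and filters, a block for the replicate number, omission of each library, DESeq2 1.42.0, limma-voom (limma 3.58.1) and removal of chromosome medians. BALB/c reads differ from the C57BL/6 reference at strain variants, which can lower their mapping. Positions came from RefSeq GRCm38.p6, transcripts from GENCODE M21. Named were the 9 genes, set pathway genes and, per list, the called genes with the highest and lowest fold change that reached 1 CPM in a line. Profile distances used log2 CPM with a prior count of 2, over genes whose mean reached 1 CPM. The members and lists were chosen with earlier results of these data known. The procedure was tested on simulated data. Replicates of a line differed by more than sampling noise (chi-square per degree of freedom 11.3 to 38.4), so none was a copy.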

Additional observations from a re-analysis of the deposited data

How the results depend on the processing

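Under 14 alternatives the count of genes higher in UV2 was 5 to 6 (main 6) and the count lower was 2 throughout. The count beyond 2-fold was 1 in place of 2 with total counts, and 1 to 2 on leaving out each library; without bEnd.3 replicate 2 and without UV2 replicate 3 B2m was not past it. Tap2 had a log2 fold change of -0.037 with total counts, -0.050 with chromosome medians removed and -0.019 to 0.13 on leaving out each library, and it passed no test. Erap1 was not called with chromosome medians removed; the other 7 called genes kept their call and direction under all 14. The ratio of Psmb10 to Psmb7 was -0.13 to 0.058 on leaving out each library, and the other 4 ratios kept their direction. With chromosome medians removed, a setting chosen after seeing the data, the 3 subunit ratios were -0.70, 0.48 and -0.47; the other 2, each within chromosome 17, did not move. With the replicate number as a block (replicate block), 8682 genes of the table were called against 8538, and Nlrc5 stood at 5.35. Deviations of same-numbered libraries correlated at 0.085, 0.16 and 0.20, so the numbers were not taken as pairing; each library correlated best with its own number, a hint from the data only. Depth limits the values of Nlrc5 and Ciita in bEnd.3, which rest on few counts.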
